A study of Mus musculus with 2 samples.

Results

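Dio2, Thra and Thrb, 3 of the 32286 features counted in these libraries, encode an activating enzyme and the nuclear receptors of thyroid hormone, which reaches skin mainly as the prohormone thyroxine. Dio2 encodes the type 2 deiodinase, a selenoenzyme of the endoplasmic reticulum that removes an outer-ring iodine from thyroxine to give triiodothyronine, the active hormone. Its counterpart Dio3 inactivates both forms, so the balance of the deiodinases sets how much active hormone a cell sees. Thra and Thrb encode the nuclear receptors that bind triiodothyronine, pair with retinoid X receptors on DNA, and recruit corepressors without hormone and coactivators with it. In skin, hedgehog activity and deiodinase levels have been studied together in basal cell carcinoma, a tumour driven by Smoothened and the Gli transcription factors. The 3 genes were chosen with their levels across clusters of these libraries known, so those levels are given as a description with no test.

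Single-cell RNA was counted in sorted mouse skin epidermis, in 1 library per genotype. The Survivin GOF library came from mice with Krt14rtTA and Survivin GOF added to Involucrin-CREER/Rosa-SmoM2, and the SmoM2 library from mice with Involucrin-CREER/Rosa-SmoM2 alone. Both genotypes thus carry a CreER under the involucrin promoter and SmoM2, a constitutively active Smoothened, and the first adds rtTA under the Krt14 promoter and a gain-of-function allele of Survivin (gene Birc5). The sort kept YFP+ cells that were CD34- and high in integrin α6. The number, age and sex of the mice and the inducing treatments are not given in the sources used here. With 1 library per genotype there is no replicate spread and no test of a genotype difference. Every interval below is a 95% interval that covers counting error only.

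After filtering, 6494 Survivin GOF and 10294 SmoM2 cells were kept, with medians of 12324.5 and 7648 UMIs (unique molecular identifiers, each 1 counted RNA molecule). Of these, 6317 Survivin GOF and 10121 SmoM2 cells lay in the 24 keratinocyte clusters, and the rest in a melanocyte-like and an immune-like cluster. Birc5 stood at 793 CPM in Survivin GOF keratinocytes, against 55.1 CPM in SmoM2 keratinocytes, where CPM scales the UMIs of a gene to the summed UMIs of the population it was counted in. The keratins Krt5 and Krt14 stood at 7573 and 15303 CPM in Survivin GOF keratinocytes, against 6520 and 12887 CPM in SmoM2 keratinocytes. The libraries also differed in sex: 1804 Survivin GOF keratinocytes had a Y-linked UMI and no Xist, and 3607 the reverse, against 7350 and 30 in the SmoM2 library. The libraries shared 84 cell barcodes, of which 20 were among kept cells. Cluster 10 (1719 cells), cluster 11 (216 cells) and cluster 19 (67 cells) came almost only from the SmoM2 library. Cluster 2 (1394 against 27 cells) and cluster 25 (66 against 1) came almost only from the Survivin GOF library. Cluster 6, with 85 Survivin GOF and 1535 SmoM2 cells, came mostly from the SmoM2 library. It shared the leading genes Serpinb7 and Sparc with cluster 2.

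Hedgehog-high clusters were those in which Gli1 and Ptch1, a transcription factor and a receptor that are both direct hedgehog targets, each stood at least 2-fold above all other keratinocytes in both libraries. There were 4, holding 1310 of 6317 Survivin GOF keratinocytes (20.7%) and 2424 of 10121 SmoM2 keratinocytes (24.0%). Cluster 7 was led by Pi15, Krt17, Tnc and Dio2, and is called the Pi15 cluster. Cluster 9 was led by Cenpf, Mki67 and Top2a and had 9 of 10 cycling markers at least 2-fold up, so it is the cycling cluster. Cluster 12 was led by Ccer2, Adamts1, Alcam and Lgr5 (the Adamts1 cluster), and cluster 16 by Col14a1, Basp1, Nrp2 and Lhx2 (the Col14a1 cluster). The Pi15 cluster in the SmoM2 library lay nearest inside the rule, with Gli1 2.63-fold and Ptch1 2.77-fold above the rest. Cluster 25, led by the interferon-inducible genes Cxcl9 and Cxcl10, lay nearest outside it, with 1.77-fold and 1.85-fold in its 66 Survivin GOF cells.

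Dio2 (ENSMUSG00000007682) lies on the minus strand of chromosome 12 at 90724552 to 90738438 in mm10, and is shown first because it separates the hedgehog-high clusters from each other. The RefSeq start of Dio2 lies 600 bases upstream of the GENCODE vM21 start. The 150 bases before that RefSeq start (GRCm38.p6, chr12:90739039-90739188, minus strand) are printed with a cAMP response element, TGACGTCA, in capitals, since cAMP signalling is a known inducer of Dio2.
Dio2: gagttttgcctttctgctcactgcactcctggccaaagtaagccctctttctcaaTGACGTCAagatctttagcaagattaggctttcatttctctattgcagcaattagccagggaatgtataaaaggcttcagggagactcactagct
The element begins 95 bases before the start, and reads the same on both strands. Among all RefSeq windows of the same 300 bases around a start, 1.79% hold it (588 of 32851). The Gli-type letters GACCACCCA (in 83 windows, 0.253%) and the receptor direct repeat, AGGTCA at a spacing of 4 bases (in 5 windows, 0.0152%), were searched on both strands and were not found in the Dio2, Thrb, Dio1 or Dio3 windows. Such a match is a description of letters, and none of these libraries measured binding.

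Dio2 was concentrated in 1 of the 4 hedgehog-high clusters in both libraries, at levels that did not track Gli1. In the Pi15 cluster Dio2 stood at 76.6 CPM (67.4 to 86.7, 251 UMIs in 245 cells) in the Survivin GOF library, against 73.2 CPM (66.7 to 80.3, 453 UMIs in 854 cells) in the SmoM2 library. In the cycling cluster its level was 7.53 CPM in the Survivin GOF and 16.4 CPM in the SmoM2 library, and in the Adamts1 cluster 2.47 and 7.68 CPM. In the Col14a1 cluster only 4 Dio2 UMIs were counted in 483 Survivin GOF cells (0.499 CPM) and 7 in 469 SmoM2 cells (1.42 CPM). The order of the 4 clusters was thus the same in both libraries. Poisson intervals of neighbours in that order overlapped only for the Survivin GOF Adamts1 (1.23 to 4.42 CPM) and Col14a1 (0.136 to 1.28 CPM) clusters.

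The hedgehog readout of the same 4 clusters was nearly level. Gli1 stood at 70.2, 68.6, 77.5 and 73.4 CPM in the Survivin GOF Pi15, cycling, Adamts1 and Col14a1 clusters, against 70.0, 91.3, 78.5 and 79.4 CPM in the SmoM2 ones. Ptch1 stood at 475, 512, 669 and 693 CPM in the same Survivin GOF clusters, against 469, 572, 685 and 683 CPM in the SmoM2 ones. The Pi15 cluster therefore had the most Dio2 and the least Ptch1 of the 4 in both libraries. Smo, the transducer itself, was at 173 CPM in the Survivin GOF Pi15 cluster, against 167 CPM in the SmoM2 one. YFP, the sort marker, was at 29.9 CPM in the Survivin GOF Pi15 cluster and 31.0 CPM in the Survivin GOF Col14a1 cluster, against 37.0 and 29.6 CPM in the SmoM2 ones.

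**Figure D1:**
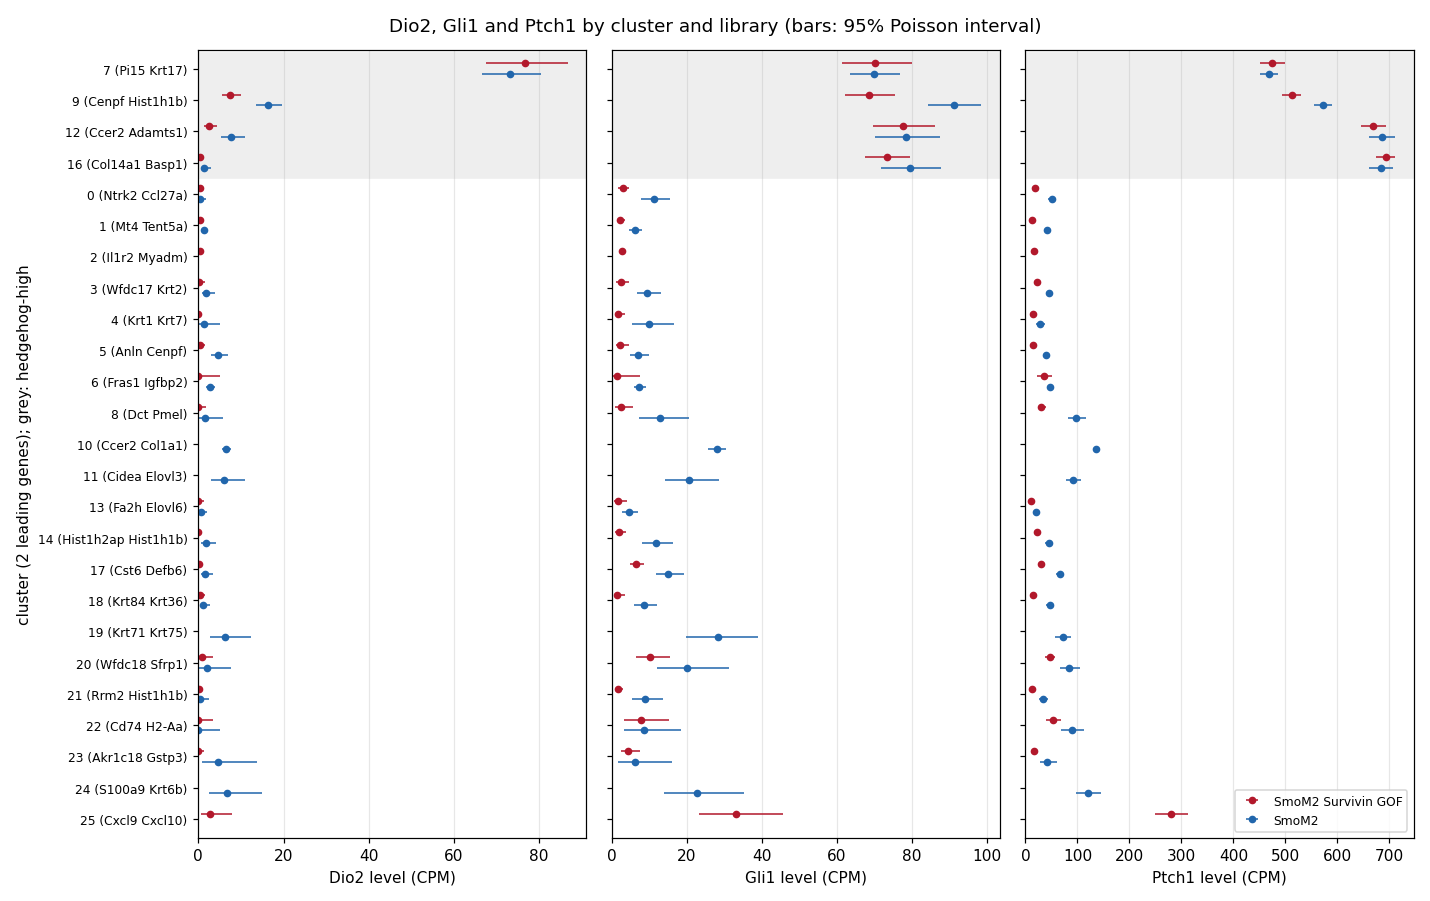
Levels of Dio2, Gli1 and Ptch1 (CPM, linear axes) in every cluster with at least 50 cells in a library, Survivin GOF points above SmoM2 points, with 95% Poisson bars and the 4 hedgehog-high clusters in grey. Clusters 8 and 22 are the melanocyte-like and immune-like ones. Dio2 is far to the right only in cluster 7 (76.6 CPM in Survivin GOF and 73.2 CPM in SmoM2), while Gli1 is similar in all 4 grey clusters.

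Taken over all 4 hedgehog-high clusters, Dio2 stood at 14.3 CPM against 0.302 CPM in other keratinocytes of the Survivin GOF library, a ratio of 47.3 (30.9 to 75.7). In the SmoM2 library the values were 27.2 and 3.30 CPM, a ratio of 8.22 (7.09 to 9.56). Its log2 value, 3.04, was 3.86 without the 7 clusters that had under 50 cells in a library. Against all measured genes, 26.8% stood at least 1.5-fold higher in hedgehog-high clusters in the Survivin GOF library and 27.1% in the SmoM2 library. The clusters were made from these cells and picked on hedgehog targets, so these ratios describe where Dio2 RNA was counted and test nothing. Without the Pi15 cluster the remaining 3 stood at 3.28 CPM in the Survivin GOF and 9.64 CPM in the SmoM2 library. The Pi15 cluster was 23.3 times (17.6 to 31.4) the other 3 in the Survivin GOF library and 7.59 times (6.32 to 9.16) in the SmoM2 library, where 6.65% and 8.15% of all measured genes stood at least 1.5-fold higher in the Pi15 cluster.

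The Pi15 cluster held 74.9% of all keratinocyte Dio2 UMIs with 3.88% of the cells in the Survivin GOF library, against 52.5% of the UMIs with 8.44% of the cells in the SmoM2 library. Within it the RNA was unevenly spread. No Dio2 UMI was counted in 65.3% of its Survivin GOF and 70.5% of its SmoM2 cells, and the highest cells had 13 and 12 UMIs. A single cell held at most 5.18% of the cluster's Dio2 UMIs in the Survivin GOF and 2.65% in the SmoM2 library, so no cell sets the level.

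Because Survivin GOF cells were deeper, cells were also thinned to 3000 UMIs each before the share with a Dio2 UMI was taken, which left out 10 Survivin GOF and 91 SmoM2 keratinocytes. At that depth 16.8% (12.3 to 22.1) of Survivin GOF and 17.4% (14.9 to 20.2) of SmoM2 cells of the Pi15 cluster had a Dio2 UMI, against 34.7% and 29.5% unthinned. The thinned share was 3.75% over the Survivin GOF and 7.90% over the SmoM2 hedgehog-high clusters, and 0.120% and 0.914% over other keratinocytes. Melanocyte-like and immune-like cells, taken as a measure of free RNA, had no Dio2 UMI after thinning in 177 Survivin GOF cells (exact interval up to 2.06%) or in 173 SmoM2 cells (up to 2.11%). Unthinned, they held 0 Dio2 UMIs in Survivin GOF and 2 in SmoM2 (1.01 CPM, 0.123 to 3.66), an interval that takes in the 3.30 CPM of other SmoM2 keratinocytes. The median depths of these cells were 13954 and 9429 UMIs. The Pi15 cluster lay above that background in both libraries. For the pooled other keratinocytes the background is too thinly counted to decide. Its upper limit in Survivin GOF, 1.18 CPM, exceeds their 0.302 CPM, so no excess could have been seen. Among the SmoM2 ones, cluster 10 at 6.53 CPM (5.45 to 7.76) lay above the 3.66 CPM limit.

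Outside the hedgehog-high clusters Dio2 ran from 0 to 2.68 CPM over 15 Survivin GOF clusters (median 0.27) and from 0.327 to 6.83 CPM over 17 SmoM2 clusters (median 1.89). The top SmoM2 value is cluster 24, where 1 cell held 5 of the 6 UMIs. Cluster 10, led by Ccer2, Notch2 and the collagens Col1a1 and Col1a2, held 129 of the 253 Dio2 UMIs counted in other SmoM2 keratinocytes, at 6.53 CPM (5.45 to 7.76). Its Gli1 was at 27.9 CPM and its Ptch1 at 136 CPM, beside medians of 9.87 and 46.4 CPM over those 17 SmoM2 clusters. Its Ptch1 was the highest of the 17. The lowest SmoM2 levels among hedgehog-high clusters were 70.0 CPM for Gli1 and 469 CPM for Ptch1. Krt5 and Krt14 in cluster 10 were at 6549 and 14140 CPM. Of 8 fibroblast and dermal papilla markers, 4 were at least 2-fold up there. Col1a1 was at 14.6, Col1a2 at 14.3 and Dcn at 566 CPM. Over other SmoM2 keratinocytes, cluster 10 included, they were at 4.06, 4.56 and 227 CPM. Pdgfra had 2 UMIs in the 1719 cells of cluster 10 and 6 in all 7697 of those keratinocytes. The part of other cell types in this cluster was not tested. With clusters of at least 50 cells in both libraries alone, other keratinocytes held 0.227 CPM of Dio2 in the Survivin GOF and 1.88 CPM in the SmoM2 library. In those same cells Gli1 was at 3.09 CPM in Survivin GOF and 8.52 CPM in SmoM2, and Ptch1 at 18.8 and 44.3 CPM. YFP moved with them, at 0.854 CPM in Survivin GOF and 3.04 CPM in SmoM2, while Thra had a ratio of 1.34. Dio2, Gli1 and Ptch1 were thus lower in the Survivin GOF library outside the hedgehog-high clusters. In the melanocyte-like and immune-like cells Gli1 was at 4.15 CPM in Survivin GOF and 11.2 CPM in SmoM2. Ptch1 was at 37.7 and 94.3 CPM there, and YFP at 1.92 and 4.06 CPM. These background levels were also lower in Survivin GOF, and each lay above that of the keratinocytes just given. The part of free RNA in the keratinocyte difference was not tested.

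Between the genotypes, Dio2 was lower in the Survivin GOF library over all keratinocytes. Over all cells of the Pi15 cluster it was close to equal, though not among its male-called cells, as given below. Over all keratinocytes it stood at 3.42 CPM (335 UMIs) in Survivin GOF against 8.71 CPM (863 UMIs) in SmoM2, 2.55-fold lower (2.24 to 2.90). Of all 14579 genes measured there, 5.40% were at least 1.5-fold lower and 6.80% at least 1.5-fold higher. In such a total, fewer cells of a state and less RNA per cell cannot be told apart, so single clusters were compared as well. Within the hedgehog-high clusters as a group Dio2 was 1.90-fold lower (1.66 to 2.19) in Survivin GOF.

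Within single clusters the difference was uneven. In the Pi15 cluster the ratio of Survivin GOF to SmoM2 was 1.05 (0.893 to 1.22). In the cycling cluster Dio2 was 2.18-fold lower (1.54 to 3.14) in Survivin GOF, and in the Adamts1 cluster 3.11-fold lower (1.53 to 6.83). With 4 against 7 UMIs, the Col14a1 ratio of 0.352 had an interval of 0.0755 to 1.38. Over the 3 clusters without the Pi15 one the group was 2.94-fold lower (2.17 to 4.02).

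The make-up of the hedgehog-high cells differed as well. The Pi15 cluster made up 18.7% of them in Survivin GOF and 35.2% in SmoM2, and the Col14a1 cluster 36.9% and 19.3%. Weighting the Survivin GOF clusters by the SmoM2 shares of UMIs, not of cells, gave 24.1 CPM of Dio2. The values to set beside it are 14.3 CPM with the Survivin GOF shares of UMIs and 27.2 CPM in SmoM2. Cluster sizes come from cells clustered on genes that may themselves differ between libraries, and 1 library per genotype leaves the mix with no error of its own.

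Sex was confounded with genotype in part. In the Pi15 cluster male-called Survivin GOF cells held 127 CPM of Dio2 (96.7 to 164, 38 cells) and female-called ones 66.7 CPM (57.0 to 77.6, 183 cells), against 73.2 CPM (65.8 to 81.2, 621 cells) in male-called SmoM2 cells. Among male-called cells alone the Survivin GOF to SmoM2 ratio in the Pi15 cluster was 1.74 (1.29 to 2.29), higher than in all its cells, while over hedgehog-high clusters Dio2 was 2.31-fold lower. The mice behind the male-called and female-called cells are not given in the sources used here.

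Over all keratinocytes, cells with a hedgehog target UMI more often held Dio2, while within the hedgehog-high clusters as a group those with either target did not. Over all thinned keratinocytes a Dio2 UMI was counted in 4.43% of Survivin GOF cells with 1 Gli1 UMI and 0.716% of those with none. In the SmoM2 library the shares were 5.21% and 2.32%. Spearman's rho of Dio2 with Gli1 was 0.075 over 6307 Survivin GOF cells and 0.051 over 10030 SmoM2 cells, and with Ptch1 0.10 and 0.089. These are weak correlations of sparse counts in cells that share a library, and no p-value was attached to them.

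Within the hedgehog-high clusters rho with Ptch1 was -0.032 in Survivin GOF (1306 cells) and -0.055 in SmoM2 (2368 cells), and with Gli1 0.025 and -0.013. There a Dio2 UMI was counted in 3.71% of Survivin GOF cells with either target and 3.92% of those with neither, and in 7.07% (5.96 to 8.32) and 11.3% (8.58 to 14.6) of SmoM2 cells. Inside the Pi15 cluster the 2 libraries differed for Gli1. A Dio2 UMI was counted in 11 of 36 Survivin GOF cells with 1 Gli1 UMI (30.6%) and in 30 of 204 with none (14.7%). In the SmoM2 library it was counted in 21 of 133 (15.8%) and 120 of 669 (17.9%). Only 36 cells stand behind the first share (interval 16.3% to 48.1%), and the SmoM2 shares ran the other way.

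Pi15 cluster cells in which neither target was counted still held Dio2: 9 of 62 Survivin GOF cells (14.5%, 6.86 to 25.8) and 43 of 223 SmoM2 cells (19.3%, 14.3 to 25.1). Of the Pi15 cluster cells that held both Gli1 and Ptch1, 8 of 28 in Survivin GOF (28.6%, 13.2 to 48.7) had a Dio2 UMI. In SmoM2 it was 16 of 114 (14.0%, 8.24 to 21.8). For the Col14a1 cluster cells with both, the counts were 0 of 75 in Survivin GOF (an exact interval up to 4.80%) and 0 of 77 in SmoM2 (up to 4.68%). Only 0 of 483 Survivin GOF and 2 of 468 SmoM2 thinned cells of that cluster had a Dio2 UMI, so low counts there were to be expected. At 3000 UMIs a cell without a Gli1 UMI may still express Gli1, so these shares describe counted molecules.

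**Figure D2:**
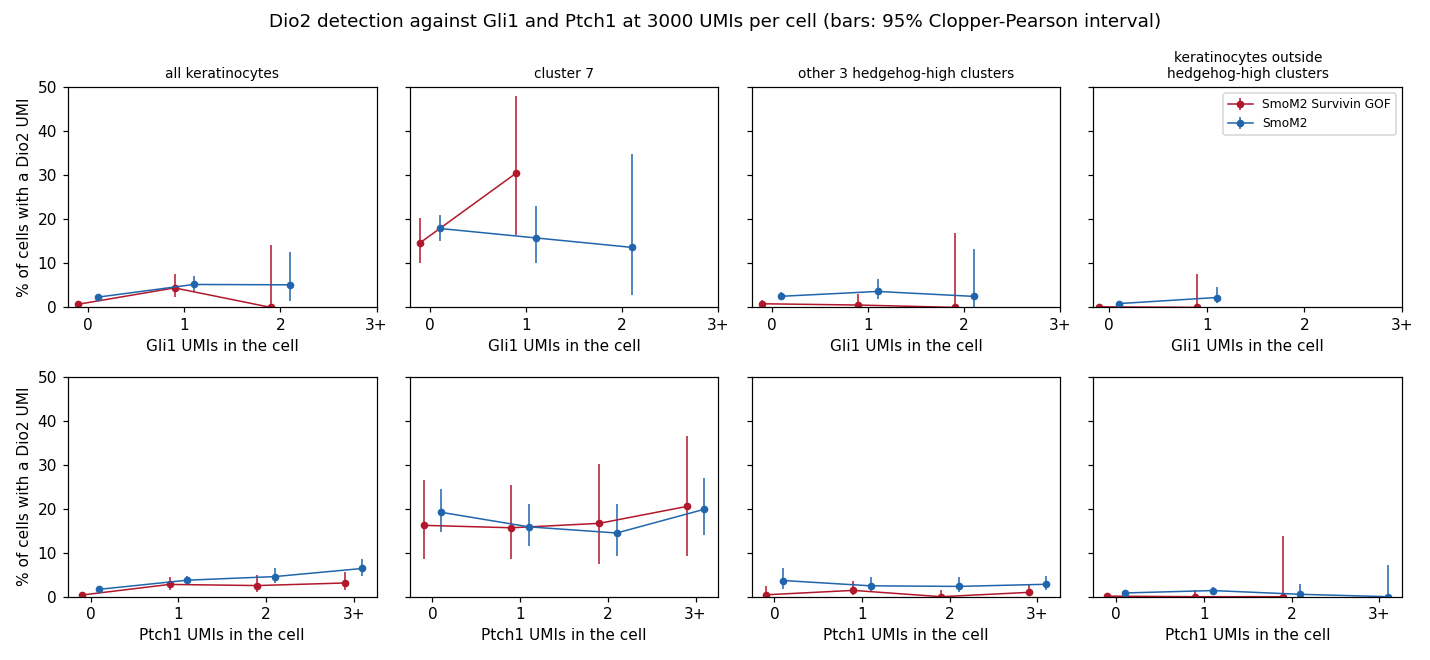
Share of cells with a Dio2 UMI (percent, vertical axis) against the number of Gli1 (top row) or Ptch1 (bottom row) UMIs in the same cell at 3000 UMIs per cell, in 4 populations, Survivin GOF red and SmoM2 blue, with 95% Clopper-Pearson bars. Groups under 20 cells are not drawn. The share in cluster 7 is high with 0 UMIs of either target (Gli1: 14.7% in Survivin GOF and 17.9% in SmoM2), while the other 3 hedgehog-high clusters stay low at every count.

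Across clusters, the genes whose levels ran most like Dio2 were those of the Pi15 cluster. Pearson's r of log2(CPM + 1) was taken over 19 Survivin GOF and 21 SmoM2 keratinocyte clusters, among 7873 genes that reached 20 CPM in a cluster of each library. The 8 highest were Bmp3 (r 0.92 in Survivin GOF and 0.88 in SmoM2), Pi15 (0.86 and 0.87), Lgi3 (0.88 and 0.80), Gtf2b, Fads2, Gadl1, Igfbp5 and Ap1s3. Bmp3 is a ligand of the BMP family, Pi15 a secreted peptidase inhibitor, Fads2 a fatty acid desaturase and Igfbp5 a binding protein of insulin-like growth factors. All 8 had their highest level in the Pi15 cluster in both libraries, so this likeness rests largely on 1 cluster. Bmp3 was at 43.0 CPM there in Survivin GOF and 49.5 CPM in SmoM2, and Igfbp5 at 51.9 and 137 CPM. Gli1 itself reached r 0.73 in Survivin GOF and 0.65 in SmoM2, and Ptch1 0.70 and 0.64.

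Dcn, known as a fibroblast gene, was among the leading genes of the Pi15 cluster, so markers of dermal cells are given beside it. Of 8 fibroblast and dermal papilla markers, 4 were at 0 in Survivin GOF and 3 in SmoM2, with the defining gene Pdgfra at 0 in both. Col1a2 was at 16.8 CPM in the Survivin GOF and 30.4 CPM in the SmoM2 Pi15 cluster, beside 11.1 and 17.6 CPM in the other 3 hedgehog-high clusters and 0.460 and 4.56 CPM in other keratinocytes. Dcn, the matrix proteoglycan decorin, was at 2873 CPM in Survivin GOF and 2357 CPM in SmoM2, while the other 7 markers summed to 18.0 and 31.0 CPM. In the other 3 Survivin GOF hedgehog-high clusters, where Dio2 was at 3.28 CPM, Dcn was at 2517 CPM. In the other 3 SmoM2 ones, where Dio2 was at 9.64 CPM, Dcn was at 1088 CPM. Of 4 endothelial markers, 4 were at 0 in the Survivin GOF Pi15 cluster and 3 in the SmoM2 one, and the part of other cell types in the Dio2 level was not tested.

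Thra (ENSMUSG00000058756, plus strand of chromosome 11, 98740638 to 98769006), the receptor gene that is broadly expressed in skin, was counted in every cluster and was moderately higher in hedgehog-high cells. It stood at 134 CPM in hedgehog-high clusters and 93.6 CPM in other keratinocytes of the Survivin GOF library, a ratio of 1.43 (1.37 to 1.49). In the SmoM2 library the levels were 107 and 69.8 CPM, a ratio of 1.53 (1.46 to 1.60). Read against the 26.8% and 27.1% of all measured genes at least 1.5-fold higher, ratios of this size were common.

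The Pi15 cluster, where Dio2 peaked, had the lowest Thra level of the 4 hedgehog-high clusters. Its 120 CPM in Survivin GOF stood beside 121, 156 and 137 CPM in the cycling, Adamts1 and Col14a1 clusters. In SmoM2 its 91.5 CPM stood beside 111, 113 and 114 CPM. In Survivin GOF its interval overlapped those of the cycling and Col14a1 clusters, and in SmoM2 it overlapped none of the 3. Set against the other 3 together, the Pi15 cluster was 1.13-fold lower (1.02 to 1.26) in Survivin GOF and 1.23-fold lower (1.12 to 1.35) in SmoM2.

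Over all clusters of at least 50 cells, Thra was highest in cluster 20, led by Wfdc18 and the Wnt antagonist Sfrp1, at 160 CPM (Survivin GOF) and 136 CPM (SmoM2). It was lowest in the sebaceous-like cluster 13, led by lipid synthesis genes such as Fa2h and Elovl6, at 36.8 CPM and 21.9 CPM. Among the genes most like Thra were Ttc5, Rbfox2, Crim1 and Adnp, with r between 0.90 and 0.93. Dio2 and Thra levels over clusters had r 0.36 in Survivin GOF and 0.12 in SmoM2.

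Between genotypes Thra was 1.31-fold higher (1.27 to 1.35) in Survivin GOF keratinocytes, at 103 CPM against 78.1 CPM in SmoM2, under the 1.5-fold used here to call a difference. The ratio was 1.26 (1.19 to 1.33) over hedgehog-high clusters and 1.34 (1.30 to 1.39) over other keratinocytes. Over the 19 clusters with at least 50 cells in both libraries, the melanocyte-like and immune-like ones included, the interval lay above 1 in 12 and included 1 in 7. The log2 ratio of Thra over all keratinocytes was 0.39, beside a median of 0.08 over all measured genes.

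The last 1075 bases of Thra (98767932 to 98769006) overlap the end of Nr1d1, a circadian repressor gene on the opposite strand. The counts were made with Cell Ranger, whose strand setting was not given in the sources used here. How reads of the overlap were assigned to these genes was not tested. Between hedgehog-high and other cells Nr1d1 ran the other way, at 16.7 CPM in hedgehog-high clusters and 54.4 CPM in other keratinocytes of the Survivin GOF library, and at 26.1 and 58.0 CPM in the SmoM2 library. Outside the hedgehog-high clusters both genes had the same extremes, since Nr1d1 was highest in cluster 20 (108 CPM in Survivin GOF and 103 CPM in SmoM2) and lowest in cluster 13 (11.6 and 15.003 CPM). The transcripts of Thra, which encode a hormone-binding and a non-binding receptor form, are not separated in gene-level counts.

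Thrb (ENSMUSG00000021779, plus strand of chromosome 14, 17660261 to 18038090), the other receptor gene, was low in all 4 hedgehog-high clusters. It stood at 3.71 CPM there and 17.7 CPM in other keratinocytes of the Survivin GOF library, 4.76-fold lower (3.80 to 6.03). In the SmoM2 library the levels were 5.65 and 15.2 CPM, 2.69-fold lower (2.24 to 3.26). At least 1.5-fold lower in hedgehog-high clusters were 12.9% of all measured genes in Survivin GOF and 11.1% in SmoM2.

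In the Pi15, cycling, Adamts1 and Col14a1 clusters Thrb stood at 5.80, 2.78, 2.47 and 4.24 CPM in Survivin GOF, against 6.79, 5.29, 4.56 and 5.67 CPM in SmoM2. These rest on 11 to 34 UMIs each in Survivin GOF and 19 to 42 UMIs each in SmoM2, and the intervals of neighbouring clusters overlapped. The highest levels were in the sebaceous-like cluster 13, at 44.0 CPM in Survivin GOF and 39.0 CPM in SmoM2. Cluster 23, led by Akr1c18 and Gstp3, followed with 33.0 and 34.5 CPM, and the suprabasal-like cluster 3 with 29.1 and 33.2 CPM.

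Thrb thus peaked where Thra was lowest, and r between the receptor genes over clusters was -0.68 in Survivin GOF and -0.61 in SmoM2. With Gli1 it was -0.77 and -0.72, and with Dio2 -0.55 and -0.42. These points share library and clustering, and are a description of 19 and 21 clusters. The 5 genes most like Thrb were Cpeb2, Rcn1, Dgat2, Ctsd and Tmcc3. Dgat2 completes triglyceride synthesis and Ctsd is a lysosomal protease, and both were highest in cluster 13, at 234 and 420 CPM in Survivin GOF and 188 and 497 CPM in SmoM2.

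Between genotypes Thrb over all keratinocytes was 14.5 CPM in Survivin GOF against 13.1 CPM in SmoM2, a ratio of 1.11 (1.03 to 1.20). In hedgehog-high clusters it was 1.53-fold lower (1.15 to 2.04) in Survivin GOF, on 81 against 127 UMIs. Of 12558 genes measured in those clusters, 5.57% were at least 1.5-fold lower and 5.53% at least 1.5-fold higher. Each of the 4 clusters was lower in Survivin GOF, but only the interval of the cycling cluster, 1.90-fold lower (1.05 to 3.59), left out 1.

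**Figure D3:**
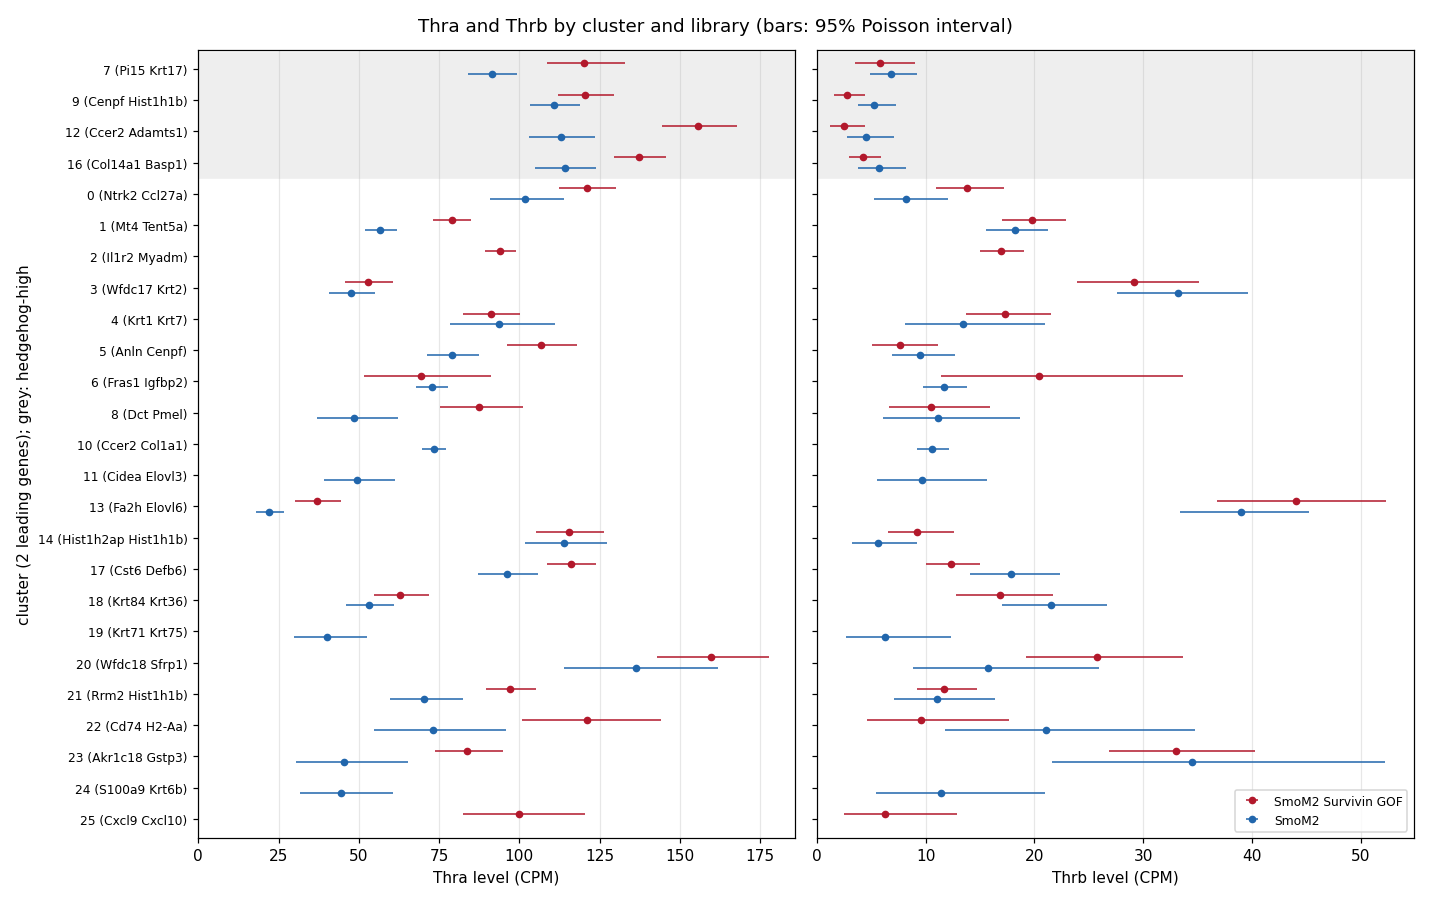
Levels of Thra (left) and Thrb (right) in CPM on linear axes, by cluster and library, drawn as for Dio2, with 95% Poisson bars. Thrb is low in the 4 grey hedgehog-high clusters (2.47 to 6.79 CPM). In the same range are SmoM2 cluster 14 (5.66 CPM), SmoM2 cluster 19 (6.27 CPM) and Survivin GOF cluster 25 (6.25 CPM, 7 UMIs). In cluster 13 Thrb is highest (44.0 CPM in Survivin GOF and 39.0 CPM in SmoM2) and Thra is lowest.

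The other deiodinases were almost uncounted in hedgehog-high cells. Dio3, which inactivates the hormone and is known to be induced by hedgehog signalling in keratinocytes, had 0 UMIs in 1310 Survivin GOF and 1 UMI in 2424 SmoM2 hedgehog-high cells. Cluster 10 of the SmoM2 library held 20 of the 37 keratinocyte Dio3 UMIs, at 1.01 CPM. The highest level was in cluster 15, led by the inner root sheath keratins Krt25, Krt71 and Krt73, with 31 UMIs (62.7 CPM) in 29 Survivin GOF cells and 14 UMIs (26.2 CPM) in 37 SmoM2 cells. A single cell held 48.4% of those UMIs in Survivin GOF and 57.1% in SmoM2, so this level rests on very few cells. Dio1, the deiodinase of liver and kidney, had 2 UMIs in all Survivin GOF and 1 in all SmoM2 keratinocytes.

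A list of 49 genes of thyroid hormone transport, activation, reception and response was then read for context. Between hedgehog-high clusters and other keratinocytes 43 could be measured with at least 50 UMIs. Of these 11 were at least 1.5-fold higher and 4 at least 1.5-fold lower in Survivin GOF (25.6% and 9.30%), and 10 and 4 in SmoM2. The shares of higher members lie near the 26.8% and 27.1% of all genes, so the list as a whole did not stand apart. The share of lower members, 9.30% in both libraries, lay below the 12.9% and 11.1% of all genes. Its median log2 ratio was 0.35 in Survivin GOF beside 0.25 for all genes, and 0.29 in SmoM2 beside 0.27.

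In both libraries 7 members were higher. They were Dio2, the amino acid and thyroid hormone transporter Slc7a5 (log2 ratio 0.80 in Survivin GOF and 0.80 in SmoM2), the corepressor genes Hr (0.92 and 0.81) and Tbl1x (0.73 and 0.71), the selenoprotein elongation factor Eefsec (0.59 and 0.59), and Me1 and Strbp. Hr, hairless, is a thyroid hormone receptor corepressor required for the hair cycle, and stood at 131 CPM in Survivin GOF and 137 CPM in SmoM2 hedgehog-high clusters. Me1, malic enzyme and a known hormone target in liver, had log2 ratios of 1.75 and 0.76.

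The 4 lower members in both libraries were Thrb, the transporter Slc7a8 (-1.06 in Survivin GOF and -0.89 in SmoM2), Nr1d1 (-1.70 and -1.15) and Dbp (-1.32 and -0.67). Nr1d1 and Dbp are circadian output genes as well, so their place in a hormone list is shared with the clock. The time of collection was not given in the sources used here.

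**Figure D4:**
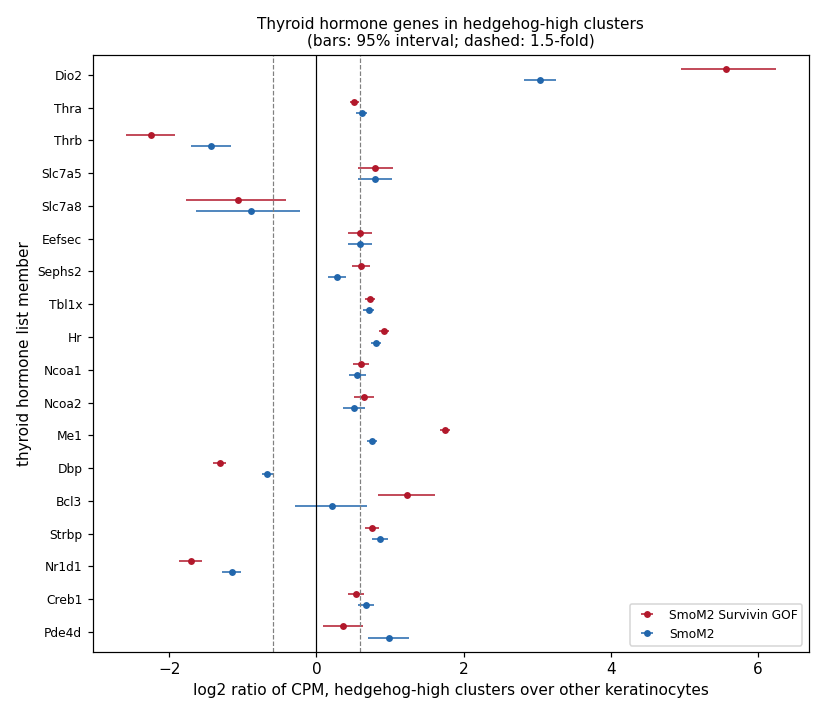
Log2 ratio of CPM in hedgehog-high clusters over other keratinocytes for list members at least 1.5-fold higher or lower in either library, Survivin GOF points above SmoM2 points, with 95% intervals for counting error and dashed lines at 1.5-fold. Dio2 stands alone on the right (5.56 in Survivin GOF and 3.04 in SmoM2) and Thrb is farthest left (-2.25 and -1.43).

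Inside the hedgehog-high cells, Nr1d1 as well as Dio2 was at least 1.5-fold higher in the Pi15 cluster than in the other 3 clusters in both libraries. Nr1d1 stood at 24.7 CPM in the Pi15 cluster and 15.3 CPM in the other 3 clusters of the Survivin GOF library, a ratio of 1.62 (1.25 to 2.08). In the SmoM2 library the levels were 43.3 and 19.6 CPM, a ratio of 2.21 (1.87 to 2.61). Me1 was lower in the Pi15 cluster in both, at 93.7 CPM beside 185 CPM in Survivin GOF and 69.0 CPM beside 149 CPM in SmoM2, a direction in which 12.4% and 13.5% of all genes passed 1.5-fold.

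Between genotypes few of the list moved past 1.5-fold. Over all keratinocytes 44 members were measured, 1 was higher in Survivin GOF (the coactivator Ep300) and 1 lower (Dio2), 2.27% of the list each way beside 6.80% and 5.40% of all genes. In hedgehog-high clusters 42 were measured, of which 1 was higher (2.38% beside 5.53% of all genes), the hormone target Bcl3 at 4.30 CPM in Survivin GOF against 2.14 CPM in SmoM2. The 4 lower ones were Dio2, Thrb, Dbp (47.5 against 74.8 CPM) and Nr1d1 (16.7 against 26.1 CPM). That is 9.52% of the measured list beside 5.57% of all genes.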

How the data were processed

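Per the file headers and the submitters' processing notes, the authors made UMI counts per gene and barcode with Cell Ranger 6.1.1 on mm10, and the notes also name R 4.3.0 and Seurat 4.2.0. The deposited counts are whole numbers that were not normalized. The 10x chemistry is named as both V2 and V3 in the labels. The Survivin GOF matrix held 11438 barcodes and 126329382 UMIs, and the SmoM2 matrix 24844 barcodes and 146216083 UMIs. Of these, 6922 and 10993 passed at least 1500 genes and at most 10% mitochondrial UMIs, and the labels give 8046 cells for SmoM2.

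Scrublet's automatic threshold marked 0 cells, so the top 6% of scores was removed in each library (428 Survivin GOF and 699 SmoM2 cells). Cells were clustered with scanpy 1.11.5 under Python 3.11.15 (2000 variable genes, 30 principal components, 15 neighbours, Leiden resolution 1), which gave 26 clusters, with no integration. Counts were summed per cluster and library and scaled to CPM. Ratios have exact conditional intervals, levels exact Poisson and shares exact Clopper-Pearson intervals, all for counting error only. A gene was measured with at least 50 UMIs over both sides and called at 1.5-fold. Named genes were the 3 members, the 8 or 5 most like each, the hedgehog genes, and list members past 1.5-fold in both libraries or between libraries. The ratio code was tested on simulated counts. The members and lists were chosen with earlier results of these data known. Promoter windows came from RefSeq, which matched 2 of the 3 members. Some named-gene results are not reported here.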

Additional observations from a re-analysis of the deposited data

Results flagged for a closer look

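Dio2 UMIs were also counted in barcodes that the cell filter left out. There were 77 in the Survivin GOF library (5.91 CPM of the UMIs in those barcodes) and 443 in the SmoM2 library (11.95 CPM). Gli1 was at 35.8 CPM in the Survivin GOF and 50.6 CPM in the SmoM2 barcodes left out. They had under 1500 genes or over 10% mitochondrial UMIs, and they entered no comparison above.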

How the results depend on the processing

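No paired analysis was possible because each genotype has 1 library and the labels carry no replicate numbers. Of the recomputed values, 86 stayed within the counting interval or range of the reported one, 46 moved and 2 turned sign. Values are log2 ratios unless said. For Dio2 in Survivin GOF over SmoM2, all keratinocytes moved to -1.81 with male-called cells and -2.32 without the Pi15 cluster. Over hedgehog-high clusters it was -1.21 with male-called cells, -0.61 at 2500 genes or more, -1.55 without the Pi15 cluster, -1.64 within cluster 12 and -1.51 within cluster 16, and it turned to 0.065 within the Pi15 cluster. For Dio2 in hedgehog-high over other keratinocytes, a 3-fold rule, which keeps only the cycling cluster, gave 1.26 in Survivin GOF and 1.02 in SmoM2. Leaving out the Pi15 cluster gave 3.44 and 1.55, and leaving out clusters under 50 cells in a library gave 3.86 in SmoM2 (both chosen after seeing the data). Thra in Survivin GOF over SmoM2 moved to 0.27 with male-called cells, 0.31 with median-of-ratios size factors, 0.12 within cluster 9 and 0.47 within cluster 12. Thra in hedgehog-high over other keratinocytes moved to 0.25 with the 3-fold rule and 0.65 with male-called cells in Survivin GOF, and to 0.69 without the Pi15 cluster in SmoM2. Thrb over all keratinocytes was 0.021 without the small clusters. With no minimum on UMIs the list members called were 5 higher (Survivin GOF over SmoM2, all keratinocytes), 3 higher (the same in hedgehog-high clusters), and 8 (Survivin GOF) and 9 (SmoM2) lower in hedgehog-high cells, and median-of-ratios scaling left 0 higher over all keratinocytes. Spearman's rho of Dio2 and Ptch1 in Survivin GOF turned to -0.017 within cluster 12. The cause was not tested for any of these, except that the 3-fold rule keeps 1 cluster.

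Clustering without the hedgehog and member genes kept 1307 of 1310 Survivin GOF and 2410 of 2424 SmoM2 hedgehog-high cells, with Dio2 at 74.8 and 68.9 CPM in the top cluster. At resolution 0.6 it was 73.4 and 72.4 CPM, and with no doublet removal 62.1 and 64.2 CPM. Depth limits the Col14a1 cluster, with 4 and 7 Dio2 UMIs, and Thrb in hedgehog-high cells.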
